A study of Mus musculus with 14 samples.

Results

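Group 9 of the liver nuclei is the group of nuclei in which B cell genes were highest, and it was taken as its 2 columns, wild type and Ms4a7 knockout (KO), from a table of mean levels of 12 numbered groups. The table lists 21911 genes, of which 14415 were above 0 in group 9 in at least 1 genotype, 13049 in wild type, 12904 in KO and 11538 in both. Each column is a mean over nuclei of UMIs (molecules counted once each) scaled to 10000 per nucleus, and this unit is called scaled UMIs here. The number of nuclei behind a column is unknown, so no counting error can be given, and the smallest value above 0 was 0.012 in wild type and 0.010 in KO.

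The nuclei came from frozen livers of mice fed for 22 weeks a diet causing nonalcoholic steatohepatitis (NASH), a fatty liver disease with inflammation, and were sorted on propidium iodide, a DNA stain. One library pools 3 wild type livers and the other 3 Ms4a7 KO livers, so each genotype has 1 library, and differences between them have no replicate check and no test. Bulk RNA was measured in 12 liver libraries, described here by their labels. By label, 3 each are of wild type and Ms4a7 KO mice on the same diet for 22 weeks. The others, 3 each, are of wild type mice on chow diet. These had tail-vein injections of lipid droplets (LD) or of saline buffer (PBS) on 6 consecutive days. The labels give no age and no sex, do not describe how Ms4a7 was disrupted, and do not say whether bulk replicates are separate animals, so that p-values measure only the spread between these libraries.

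B cells carry the B cell receptor, a membrane antibody made of heavy chains (Ighm or Ighd in naive cells) and kappa or lambda light chains, which signals through Cd79a and Cd79b. The transcription factors Ebf1 and Pax5 set up and hold the B cell fate. Plasma cells, which arise from B cells, secrete antibody, turn on Prdm1 and Xbp1, and lose Pax5. In the liver, B cells sit among the sinusoids and portal tracts, and IgA-producing cells have been described there in steatohepatitis.

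The start of 5 genes that led group 9 is shown to put the regulatory letters beside the levels. Promoters came from RefSeq on GRCm38.p6 (the assembly of mm10), each taken as the 250 bases before the gene's start, shown less any bases that the GENCODE gene already covers, while shares were counted on all 250. A set of 5 short motifs was searched on both strands, and their letters were chosen after the Cd79a promoter had been seen: the octamer ATGCAAAT, bound by factors that work with Pou2af1, the palindromic EBF motif, bound by Ebf1, the E-box CAGGTG, bound by E proteins such as Tcf3, and the ETS motifs GAGGAAGT and CAGGAAGT. Capitals mark a motif or its reverse complement.
Cd79a (signalling chain of the B cell receptor, chr7:24897247-24897380, plus strand): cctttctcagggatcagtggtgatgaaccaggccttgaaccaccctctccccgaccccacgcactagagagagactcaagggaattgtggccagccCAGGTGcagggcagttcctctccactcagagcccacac
Bank1 (scaffold of B cell receptor signalling, chr3:136326067-136326316, minus strand): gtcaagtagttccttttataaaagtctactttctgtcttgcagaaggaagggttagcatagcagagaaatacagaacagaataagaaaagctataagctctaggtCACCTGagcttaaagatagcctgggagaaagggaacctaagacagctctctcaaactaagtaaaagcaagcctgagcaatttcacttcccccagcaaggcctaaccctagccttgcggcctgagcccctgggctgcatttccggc
Cr2 (complement receptor CD21, chr1:195176720-195176969, minus strand): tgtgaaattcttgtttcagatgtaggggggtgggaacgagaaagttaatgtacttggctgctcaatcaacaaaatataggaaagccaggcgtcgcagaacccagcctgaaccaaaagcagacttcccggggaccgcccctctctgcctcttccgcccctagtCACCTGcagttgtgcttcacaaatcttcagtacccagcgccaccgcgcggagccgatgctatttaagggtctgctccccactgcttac
Ccr6 (chemokine receptor, chr17:8235793-8236042, plus strand): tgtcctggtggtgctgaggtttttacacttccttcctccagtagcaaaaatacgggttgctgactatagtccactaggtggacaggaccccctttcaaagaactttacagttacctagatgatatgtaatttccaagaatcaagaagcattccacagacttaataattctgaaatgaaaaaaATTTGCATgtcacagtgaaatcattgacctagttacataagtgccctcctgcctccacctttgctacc
Chst3 (chondroitin sulfotransferase, chr10:60219261-60219510, minus strand): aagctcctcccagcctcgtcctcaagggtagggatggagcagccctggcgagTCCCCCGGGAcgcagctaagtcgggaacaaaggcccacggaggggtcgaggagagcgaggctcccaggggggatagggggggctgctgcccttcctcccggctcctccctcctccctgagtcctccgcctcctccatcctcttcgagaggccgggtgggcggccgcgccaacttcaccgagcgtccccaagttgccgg
Capitals mark the E-box in Cd79a, Bank1 and Cr2, the octamer in Ccr6 and the EBF motif in Chst3. The E-box stood in 15 of the 33 leading genes (defined below) that had a listed promoter (45.5%) and in 17.1% of all 27025 promoters of the same length. The octamer stood in 1 of 33 (3.03%, Ccr6) against 1.61% of all, and the EBF motif in 2 of 33 (6.06%, Cd22 and Chst3) against 0.788%. GAGGAAGT stood in 0 of 33 against 2.44%, and CAGGAAGT in 1 of 33 (3.03%, Cd79a, in bases not shown) against 2.73%. These shares are descriptions, not sites, and Cd79a is itself among the 33.

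The marker genes given for these nuclei were all highest in group 9. The level of Ebf1 was 56.5 scaled UMIs in wild type and 60.5 in KO, and the highest of the other 22 columns was 2.47 (wild type, group 8). Pax5 was at 16.5 and 16.0 with 0.507 as the highest elsewhere, Cd79a at 4.64 and 5.74 with 0.125, and Ighd at 9.33 and 8.92 with 0.296. Ighm was at 11.2 and 13.6, and its highest other value was 1.51 in the KO column of group 5. The level of Blk, a kinase of the B cell receptor, was 2.85 and 5.31 with 0.096 as the highest elsewhere. Both columns therefore hold the given markers. The markers of the plasma cell part of the name were lower and are described with the immunoglobulins, and the nuclei are called B cell-like.

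Leading genes are those whose lower level of the 2 group 9 columns is at least 4 times the highest of the other 22 columns, with a mean level in group 9 above 0.192, the middle of all genes above 0 there. Of 7207 genes above that level 55 led group 9 (0.763%), 34 of them among the 2000 genes with the highest level, and 9 of the 55 were gene models without a proper name. The groups rest on expression in these same nuclei, so the count is a description and no test. Genes were ranked by the ratio of the lower group 9 level to the highest other column. The ratios of Bfsp2 (386), a lens filament protein, and Iglv3 (135), a lambda variable segment, at levels near the filter, were the largest of the 55. Among the 34 in the top 2000 the first included Iglc2 (70.8), a lambda light chain, Klhl14 (55.9), a Kelch protein, Pou2af1 (48.4), the coactivator of octamer-binding factors, Cd79a (37.1) and Pax5 (31.6). Ighd (30.2), Blk (29.5), Chst3 (29.2), Cr2 (28.6) and Cd79b (27.1) followed. Ms4a1, which encodes CD20 and lies in the same MS4A family as Ms4a7, had a ratio of 19.4, and Fcer2a (CD23) and Fcmr, receptors for the Fc parts of IgE and IgM, had ratios of 16.998 and 16.7. In 20 of the 55 the next highest column was wild type group 8. Just outside the threshold stood Bach2 (3.92), Fcrl1 (3.85), Sbk1 (3.81) and Blnk (3.78), and just inside it Igkc (4.10), 1700027J07Rik (4.18), Il9r (4.38) and Spib (4.42).

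Some leading gene models cover or lie beside named ones, so their reads may not be separable from the named gene's. The model Gm30211 covers all 532 bases of Igkc (mm10 chr6:70726435-70726966) on the same strand. The model 2010309G21Rik covers 454 bases of Iglc1 and 452 of Iglc3 on the opposite strand. Bfsp2 shares 36337 bases with 5830418P13Rik on the opposite strand. Whether counting used the strand is not given in the sources used here, so levels of such overlapping pairs, and of the near-identical lambda genes, are uncertain.

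**Figure D1:**
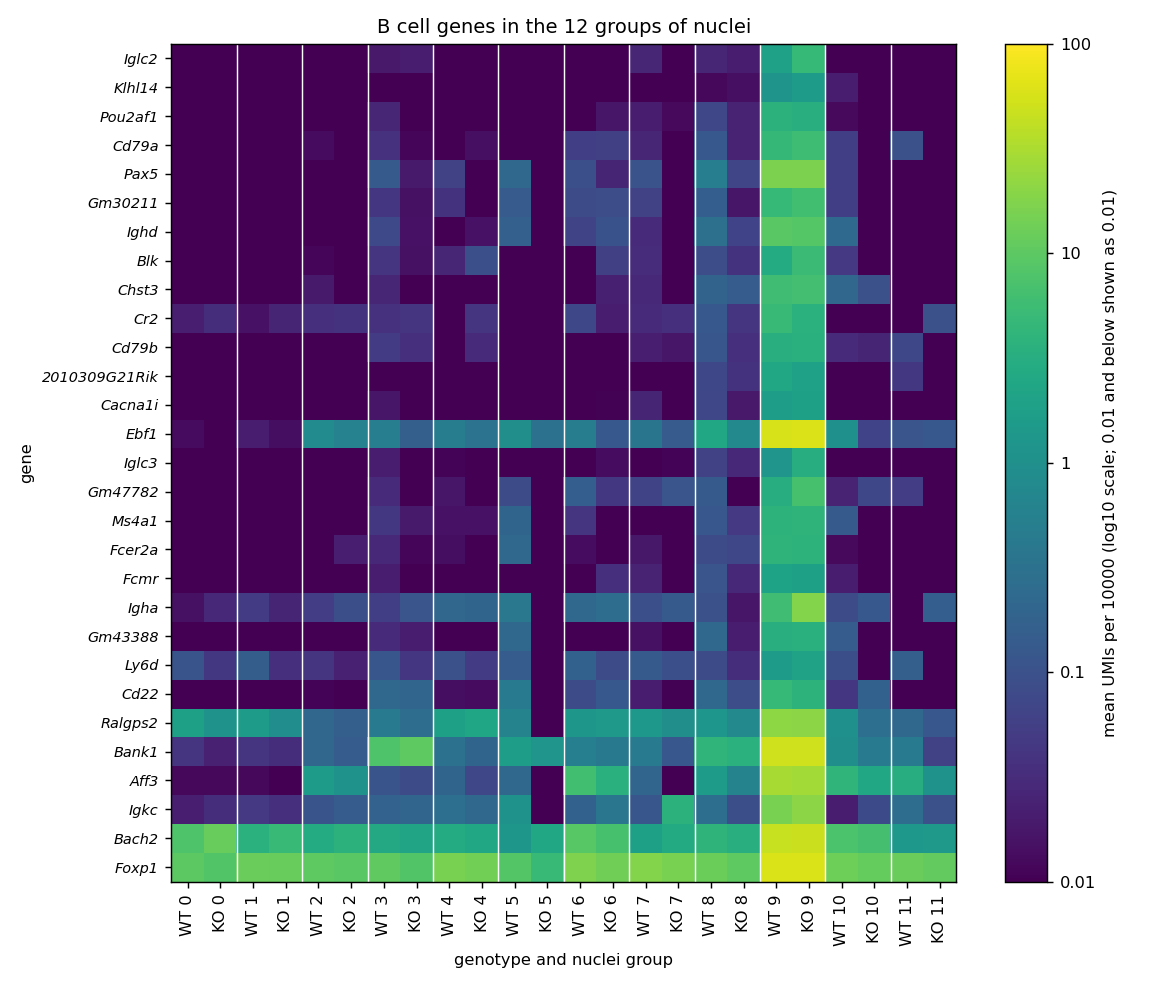
Mean scaled UMIs (colour, log10 scale, values at or below 0.01 drawn as 0.01) of 24 of the 25 leading genes with the largest ratios among the top 2000 genes by level and 5 further B cell genes in the 24 columns, wild type and KO beside each other for each group. Both group 9 columns stand out in every line, genes such as Ralgps2, Bank1, Bach2 and Foxp1 also have levels above 1 in other groups, and wild type group 8 holds weaker levels of many of the genes.

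Receptors at the cell surface were high in both columns. Of 16 surface and co-receptor genes all were above the level filter, 12 had their highest group mean in group 9 and 7 led it. Of all 7207 genes above the filter 15.7% had their highest group mean in group 9, and of the top 2000 genes 22.6%. The inhibitory receptor Btla was at 12.9 scaled UMIs in wild type and 11.9 in KO, with 4.87 as the highest elsewhere. The brake of receptor signalling Cd22 was at 4.73 and 3.91 with 0.434, and the complement receptor Cr2 at 5.22 and 3.56 with 0.124. Cd55, a complement regulator, was at 9.68 and 8.24, beside 8.24 in KO group 4, and Ly86 was higher in KO group 3 (6.54) than in group 9 (5.18 and 5.04). The summed level of the list was 67.1 in wild type and 63.0 in KO against at most 16.8 in another column.

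Signalling genes behind the receptor were present together. All 20 were above the filter, 11 had their highest group mean in group 9 (against 15.7% of all genes above the filter) and 5 led it. Bank1 (mm10 chr3:136053363-136326066) was at 51.5 and 50.5 scaled UMIs, and KO group 3, macrophage-like, came next at 10.4. Ralgps2, an exchange factor for Ral GTPases, was at 20.8 and 19.9 with 2.23 as the highest elsewhere. The kinase gene Prkcb was at 23.4 and 21.2 with 15.4, Syk at 13.4 and 13.6 with 7.89, and the adaptor Blnk at 6.97 and 9.01 with 1.84. Lyn was higher in KO group 3 (24.1) than in group 9 (16.4 and 16.8). Prkcb, Syk and Lyn are thus shared with other groups, while Bank1, Ralgps2 and Blnk stood furthest above them among these 6.

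Transcription factors of the B lineage carried the list with the most genes highest in group 9: 15 of 18, with 5 leading. Of all genes above the filter 15.7% were highest in group 9. Foxp1 was at 58.9 and 59.6 scaled UMIs with 18.3 as the highest elsewhere, Bach2 at 45.6 and 47.1 with 11.6, Aff3 at 29.5 and 27.6 with 6.19, and Ikzf3 (Aiolos) at 15.0 and 14.2 with 7.67. Bach2 represses the plasma cell program and Ikzf3 is a zinc finger factor of lymphocytes. Pou2af1 was at 3.73 and 3.39 with 0.070. The summed level was 292 in wild type and 286 in KO against at most 69.5 elsewhere.

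Other functions of B cells were represented unevenly. Of 10 MHC class II genes, which present antigen to T cells, 3 had their highest group mean in group 9, against 15.7% of all genes above the filter. They were H2-DMb2, H2-Oa and H2-Ob, of which the first and the second are named after their values were seen. The summed level of the list was 45.3 in wild type and 53.9 in KO, below the 105 of KO group 10, which is dendritic cell-like. Cd74, the invariant chain, was at 14.9 and 21.6 with 32.7 in KO group 10. H2-Ob, a subunit of a modulator of peptide loading, was at 2.97 and 4.24 with 1.14 as the highest elsewhere.

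Homing receptors followed: of 12 genes 10 were above the filter and 5 had their highest group mean in group 9, among them Cxcr5, Ccr6, S1pr1 and Gpr183. Cxcr5, the receptor for the follicle chemokine Cxcl13, was at 2.18 scaled UMIs in wild type and 3.78 in KO with 0.652 as the highest elsewhere. Itga4, an integrin subunit, was at 7.44 and 8.54, below the 13.7 of KO group 10. Of 12 survival genes 4 had their highest group mean in group 9, Tnfrsf13c, Tnfrsf13b, Cd40 and Traf3, the first pair of which are receptors for the survival factor Tnfsf13b. The counts of the homing and survival lists stand beside 15.7% of all genes above the filter. Tnfrsf13c, the receptor BAFF-R, was at 0.482 and 0.644 with 0.063 as the highest elsewhere. The ligand genes Tnfsf13b, Tnfsf13 and Cxcl13 were listed at 0 in both columns. Among 8 cytokine genes Il12a led group 9, at 0.380 and 0.236 with 0.010 as the highest elsewhere, and Il10 and Il6 were listed at 0. None of 12 cell cycle genes was above the level filter, and 5 were listed at 0 in both columns.

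Immunoglobulin constant genes were among the highest genes of group 9. Igkc was at 15.4 scaled UMIs in wild type and 20.3 in KO, Ighm at 11.2 and 13.6, and Ighd at 9.33 and 8.92. Igha (mm10 chr12:113254830-113260236, minus strand), the heavy chain of IgA, was at 5.89 and 18.1 with 0.394 as the highest elsewhere. The lambda genes Iglc2 and Iglc3 were at 1.94 and 4.85 and at 1.24 and 3.06, and Iglc1 was at 0.324 and 0.740. The heavy chains of IgG were near 0: Ighg1 was at 0.021 and 0, Ighg2b at 0 and 0.090, Ighg2c at 0.082 and 0.104, and Ighg3 at 0.013 and 0. Ighe was not analysed here. Variable segments were sparse: 11 were in the table, summing to 0.792 in wild type and 1.40 in KO, and these were looked at after the values were seen. The unswitched chains Ighm and Ighd and the switched chain Igha were therefore all high in the group mean, which cannot show whether they come from the same nuclei.

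Markers of plasma cells were mostly low. Of 18 genes 13 were above the filter and 7 had their highest group mean in group 9, against 15.7% of all genes above the filter. Jchain, the joining chain of IgA and IgM, was at 1.80 scaled UMIs and 2.45 with 0.749 as the highest elsewhere. Mzb1, a chaperone-like protein of antibody secretion, was at 0.355 and 0.536 with 0.061. Txndc5, a disulfide isomerase, was at 1.27 and 1.56 with 0.773. Xbp1 was at 0.702 and 1.05, below the 1.71 of KO group 1. The defining genes Prdm1, Sdc1, Irf4 and Tnfrsf17, named after their values were seen, were at or under 1: Prdm1 at 0.207 and 0.148, Sdc1 at 0.280 and 0.168, Irf4 at 0.622 and 0.773, and Tnfrsf17 at 0 and 0.078. The summed level of the list was 10.6 in wild type and 12.5 in KO and 10.2 in KO group 10. The 7 genes highest in group 9 were Jchain, Mzb1, Irf4, Tnfrsf17, Derl3, Txndc5 and Sec11c, of which Derl3 and Sec11c are named after their values were seen. The share of plasma cells in the group was not tested.

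**Figure D2:**
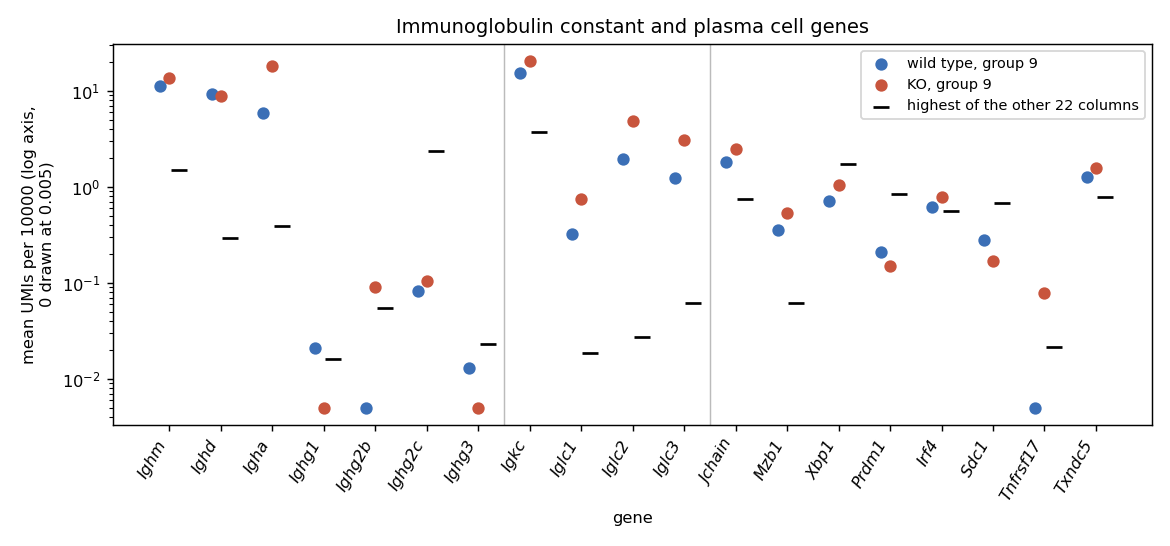
Mean scaled UMIs (log axis, 0 drawn at 0.005) of immunoglobulin heavy constant, light constant and plasma cell genes in group 9, wild type (blue) and KO (red), with the highest of the other 22 columns (black bar). Igha lies at 5.89 in wild type and 18.1 in KO, while Prdm1, Sdc1 and Xbp1 lie below the highest other column.

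Markers of other cell types were mostly low or listed at 0 in group 9. The 14 T and NK cell genes summed to 0.892 scaled UMIs in wild type and 0.942 in KO against 79.7 in KO group 6, with Cd3e, Trbc1, Thy1, Ncr1, Klrb1c and Nkg7 at 0. Macrophage genes summed to 2.56 and 3.14 against 94.5, conventional dendritic cell genes to 0.292 and 0.179 against 26.6, and neutrophil genes to 0.074 and 0.015 against 158. The 4 mesothelial genes were at 0. The plasmacytoid dendritic cell genes summed to 7.41 and 8.43 against 19.1 in wild type group 4. Of them Siglech was at 0, while Ly6d, which B cells also express, led group 9 at 1.63 and 1.99. Endothelial genes summed to 10.9 and 9.33 against 149 in KO group 4, and Pecam1, an adhesion molecule that leukocytes also carry, made up 9.32 and 7.68 of that. Hepatocyte genes were higher, with sums of 47.8 in wild type and 93.6 in KO. The sums were 94.9 and 124 in hepatocyte-like group 0 and 134 and 230 in hepatocyte-like group 1. Among the remaining groups only group 5 (72.5 and 137) exceeded group 9 in the same genotype. The source of these hepatocyte levels was not tested. Over the 7207 genes the log2 profile of group 9 had a Pearson r of 0.764 with group 6, 0.710 with group 10 and 0.671 with group 3. This r is across genes, which are not independent, and all groups share the 2 libraries.

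Of the 55 genes that led group 9, 6 were at least 2-fold higher in KO and 0 at least 2-fold lower, against 6.40% (461) and 5.31% (383) of the 7207 genes compared. The 6 were Igha, Iglc1, Iglc2, Iglc3, the model Gm47782 and 1700027J07Rik, so 4 of the 6 were immunoglobulin constant genes. Ratios were computed on log2 of the level plus 0.023 scaled UMIs, so changes of low genes are understated. Over the 55 leading genes the median log2 ratio of KO to wild type was 0.098, against 0.015 over all 7207 genes compared. Within 1.5-fold stayed 41 of the 55 (74.5%), near the 4999 of 7207 (69.4%) of all. Leading genes were chosen by the lower of the 2 columns, which favours genes alike in both, so nothing is read from these shares. Fold counts rest on 1 library per genotype.

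Among immunoglobulin genes the KO library was higher for Igha and the lambda chains. The ratio of KO to wild type for Igha was 3.06 (5.89 against 18.1 scaled UMIs, log2 1.61). For Iglc2 it was 2.50, for Iglc3 2.47 and for Iglc1 2.28. Igkc had a log2 ratio of 0.40, Ighm 0.28 and Ighd -0.06, so the kappa chain and the unswitched heavy chains stayed within 1.5-fold. In the other 11 groups the Igha log2 ratio ran from -2.10 to 1.86 (median 0.49), at levels of at most 0.394. Jchain had a log2 ratio of 0.44 and Mzb1 0.57, within 2-fold. Blk, at 2.85 and 5.31, had a log2 ratio of 0.90, and Cr2, at 5.22 and 3.56, one of -0.55.

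**Figure D3:**
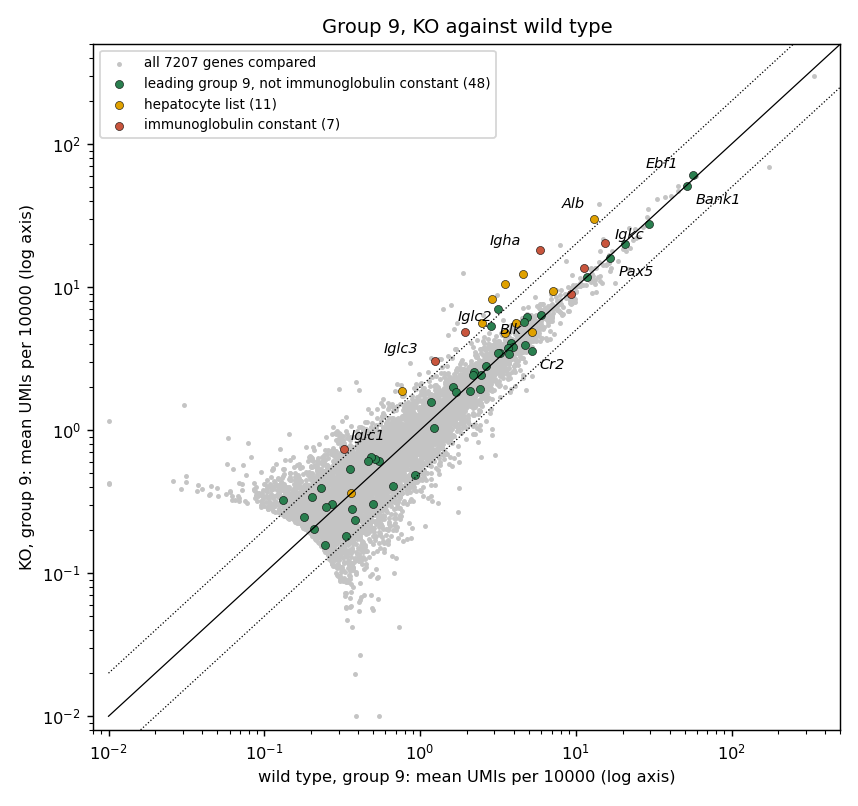
Level in KO against level in wild type, group 9, in scaled UMIs on log axes, for the 7207 genes compared (grey), with leading genes (green), hepatocyte genes (yellow) and immunoglobulin constant genes (red). The solid line is equality and the dotted lines are 2-fold, with Igha and the lambda genes above the upper dotted line and Ebf1, Bank1 and Pax5 close to equality.

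Genes of hepatocytes were among the largest rises in the top 2000, and their levels were also higher in KO in other groups. In the top 2000, 42 genes were at least 2-fold higher in KO (2.10%) and 24 at least 2-fold lower (1.20%). Of the 42 genes 15 (35.7%) had their highest group mean in hepatocyte-like groups 0 or 1, against 14.2% of the 2000. A further 8 (Gm31243, Gm47782, Igha, Iglc2, Iglc3, Serp1, Slc15a2 and Stip1) had it in group 9, against 452 (22.6%) of the 2000. The urinary protein gene Mup3 was at 1.89 and 12.6 scaled UMIs (log2 2.72), and its log2 ratio in the other 11 groups ran from 1.70 to 3.61. The serpin genes Serpina3k (log2 2.30, others 1.99 to 3.14) and Serpina1c (2.23, others 1.82 to 3.45) did likewise. Slc15a2, a peptide transporter whose highest group mean is in group 9, was at 0.389 and 2.17 (log2 2.41, others 0.37 to 3.32). The summed level of 12 hepatocyte genes was 1.96 times higher in KO in group 9 and between 1.31 and 2.31 times higher in the other 11 groups. The part of this library-wide difference in the Igha and lambda ratios was not tested.

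Chaperone genes moved in the same direction, and were picked after their values were seen. Dnaja1, a co-chaperone of HSP70, was at 0.862 scaled UMIs in wild type and 2.93 in KO (log2 1.74), and its log2 ratio in the other groups ran from 0.61 to 2.16. All 6 chaperone genes taken (Dnaja1, Hspa8, Hsp90aa1, Hsp90ab1, Hsph1 and Stip1) were higher in KO in group 9, with sums of 4.78 and 11.5. The ratio of the sums was 2.42 in group 9 and between 1.54 and 3.10 in the other groups. The model Gm42418, which overlaps ribosomal RNA, was at 174 in wild type and 69.5 in KO, 2.50 times lower, and between 1.57 and 2.73 times lower in the other groups. These levels differ between the libraries in every group, and their part in the group 9 ratios was not tested.

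**Figure D4:**
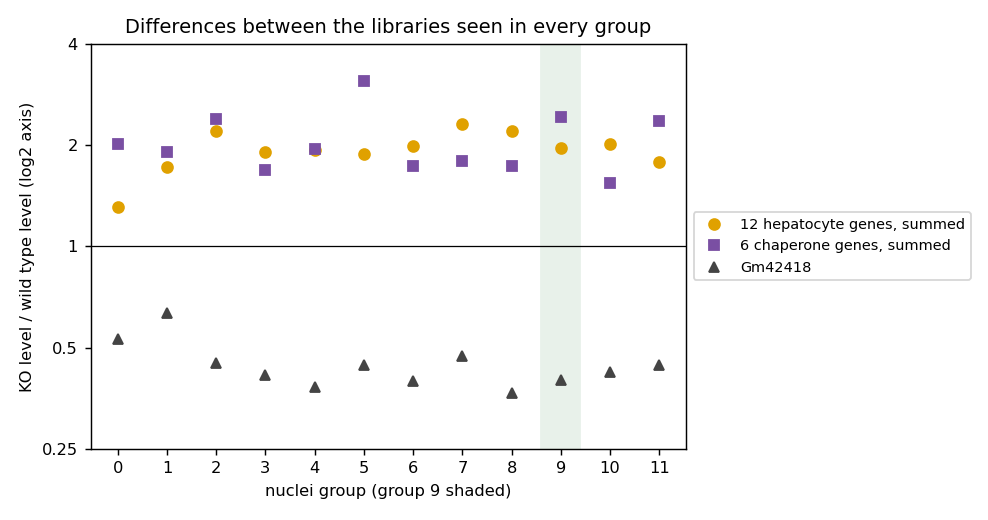
Ratio of KO to wild type (log2 axis) in each of the 12 groups for the sum of 12 hepatocyte genes, the sum of 6 chaperone genes and the model Gm42418, with group 9 shaded. Hepatocyte sums were 1.31 to 2.31 times higher and Gm42418 1.57 to 2.73 times lower in KO outside group 9, and group 9 lies within both ranges.

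The largest falls in the top 2000 were mostly of genes that are higher elsewhere. Erbb4, a receptor tyrosine kinase, was at 3.03 scaled UMIs in wild type and 0.674 in KO (log2 -2.13, others -3.25 to -0.05), with 53.5 in wild type group 7. Rad51b, a DNA repair gene, was at 2.47 and 0.646 (log2 -1.90), Slc4a4 at 2.89 and 0.923 (-1.62), Shroom3 at 1.78 and 0.603 (-1.52), Gab3 at 2.35 and 0.829 (-1.48) and Abcb4 at 2.89 and 1.02 (-1.47). Of the 12 largest falls that are not models, Cpm, a carboxypeptidase, had its highest group mean in group 9. Its level was 1.76 and 0.683 (log2 -1.34), and its log2 ratio elsewhere ran from -2.07 to 1.15. Of the 24 genes 7 (29.2%) had their highest group mean in groups 0 or 1, against 14.2% of the 2000. In group 9 it was 1 of the 24 (Cpm), against 22.6% of the 2000.

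Members past 2-fold were spread unevenly over the B cell lists. Of immunoglobulin constant genes above the filter, 1 of 3 heavy and 3 of 4 light passed 2-fold, all higher in KO. Of 16 surface, 20 signalling and 18 transcription factor genes 0 did in either direction, against 6.40% higher and 5.31% lower of all genes compared, and 2.10% and 1.20% in the top 2000. The activation gene Cd69 was at 0.486 and 1.05 scaled UMIs (log2 1.08), Cd1d1, of marginal zone B cells, at 0.159 and 0.504 (1.54), S1pr4 at 0.098 and 0.331 (1.55), and Flt3l at 0.097 and 0.310 (1.48). Bcl2l1, which encodes the survival protein BCL-XL, was at 0.5001 and 0.182 (log2 -1.35). Each was the 1 member past 2-fold of 4 activation, 5 marginal zone, 10 homing, 2 attractant and 12 survival genes above the filter. These 5 are of low level, and the number of nuclei behind them is unknown. For Cd1d1 the log2 ratio elsewhere ran from -1.18 to 2.47, with 0.93 and 0.75 in hepatocyte-like groups 0 and 1. It ran from -1.99965 to 1.23 for Cd69, -0.51 to 1.64 for S1pr4, -1.47 to 3.32 for Flt3l and -1.16 to 0.33 for Bcl2l1. The group 9 ratio of Bcl2l1 lay outside its range, and those of the other genes lay within theirs. Whether these 5 differences belong to B cells was not tested.

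Ms4a7 itself was listed at 0 in both group 9 columns. It was highest in group 3, at 1.25 scaled UMIs in wild type and 0.622 in KO. In bulk liver it went against the labels: its normalized counts were 9.70, 25.8 and 23.3 under the wild type label and, under the KO label, 102, 117 and 136 (limma log2 fold change 2.63, SE 0.37, adjusted p = 0.0149, and 0.0631 without KO replicate 2 or 0.0538 without KO replicate 3). Between the libraries labelled PBS and LD, Ms4a7 was lower under the LD label, as given below. The submitters also named the wild type and KO values for lipid droplets, and the PBS and LD values for Ms4a7. Whether the bulk labels are exchanged was not tested. Bulk directions, diets and treatments are therefore given for the libraries as labelled. Bulk libraries held 21945394 to 23126164 reads in genes under the NASH diet labels and 39318264 to 41346464 under the chow labels.

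In bulk liver the genes that led group 9 had mostly positive log2 fold changes in the libraries labelled KO, and 1 passed the test. Of the 55 genes 46 were in the table and 22 passed the filter of 10 normalized counts in 3 libraries. Bank1 was at 32.7, 42.6 and 42.9 in the libraries labelled wild type and 98.3, 122 and 138 in those labelled KO, groups that do not overlap (log2 fold change 1.57, SE 0.21, limma adjusted p = 0.0137). It was the 1 gene of the 22 called higher, against 3.02% of all 15827 genes called higher, and 0 were lower, against 0.701% (3.72% in either direction). Leaving out KO replicate 2 or KO replicate 3 ended the call (adjusted p = 0.0636 and 0.0508). In nuclei Bank1 was also at 8.06 and 10.4 in group 3, and the bulk value cannot tell which cells it came from, nor more cells of a type from more RNA per cell.

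Normalized counts of Ighd were 30.3, 28.4 and 22.0 under the wild type label and 41.8, 40.2 and 237 under the KO label, which do not overlap (log2 fold change 1.44, SE 0.64, limma adjusted p = 0.284). Cd79a was at 9.70, 50.4 and 25.7 against 34.4, 30.7 and 175 (adjusted p = 0.446), and Cd22 at 35.2, 77.5 and 25.7 against 66.4, 88.6 and 187 (adjusted p = 0.211). Replicate 3 of the libraries labelled KO was the highest of all 6 for 15 of the 22 genes. The share of all genes highest in that library was not counted, so nothing is read from this. Igkc was at 63.0, 203 and 133 against 176, 292 and 458, with overlap (adjusted p = 0.208). Igha was at 9.70, 109 and 15.9 against 17.2, 23.6 and 43.8, with a log2 fold change of 0.01 (adjusted p = 0.998). Over the 22 genes 17 had a positive log2 fold change, with a median of 0.90 against -0.020 over all genes tested. By limma 3 had an unadjusted p under 0.05, and the share of all genes under it was not counted. Not overlapping between groups were 2 of the 22, against 24.2% of all genes.

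Calls in the B cell lists in these livers were all of higher levels in the libraries labelled KO. Of the 6 given markers 3 passed the filter and 0 were called, with 0 at an unadjusted p under 0.05, by limma. Of 13 surface genes tested 3 were called, all higher (Cd38, Cd55 and Ly86), and of 19 signalling genes 4 (Lyn, Syk, Bank1 and Prkcb), against 3.02% of all genes called higher. Each of these calls was lost without KO replicate 2 and without KO replicate 3, those of Cd38, Cd55 and Syk also without wild type replicate 2, and those of Lyn and Prkcb without any one wild type replicate. In nuclei Cd38 was at 6.09 scaled UMIs in KO group 4 and Ly86 at 6.54 in KO group 3. Cxcl13, the chemokine for Cxcr5, had normalized counts of 29.1, 85.2 and 46.5 under the wild type label and 7295, 15523 and 15452 under the KO label (log2 fold change 7.92, adjusted p = 0.0017). It was named after its values were seen, and was at most 0.117 scaled UMIs in any group of nuclei.

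Members called in the further lists are named after their values were seen. Of 10 survival genes tested 3 were called higher (Cd40, Nfkb2 and Relb). Cd40, a receptor through which T cells activate B cells, was at 7.27, 5.16 and 7.35 under the wild type label and 60.2, 66.2 and 61.1 under the KO label, without overlap (log2 fold change 3.08, SE 0.28, limma adjusted p = 0.0044). Of 14 transcription factor genes 2 were called (Pou2f2 and Ikzf1), of 8 germinal centre and activation genes 2 (Cd80 and Nr4a1), of 9 marginal zone and B1 genes 3 (Cd9, Spn and Zeb2), of 8 homing receptors 1 (Cxcr4), of 4 cytokine genes 2 (Tnf and Tgfb1), of 6 attractants and growth factors 2 (Cxcl13 and Ccl19) and of 9 cell cycle genes 1 (Mki67). All were higher, and 3.02% of all 15827 genes tested were called higher. By limma 0 of 13 plasma cell and 0 of 9 MHC class II genes were called (3 and 2 at an unadjusted p under 0.05), against 3.72% of all genes in either direction. Calls of Cd40, Nfkb2, Relb and Cxcl13 held without any one library, and each of the other 12 was lost without KO replicate 2 (adjusted p from 0.0637 to 0.151) and without KO replicate 3 (0.0528 to 0.135). In nuclei the transcription factor and homing lists had their highest sums in group 9. The other further lists with calls had theirs elsewhere, such as marginal zone and B1 genes with 58.5 scaled UMIs in wild type group 3. That list summed to 12.1 and 12.2 in group 9. Which cells the bulk calls came from was not tested.

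**Figure D5:**
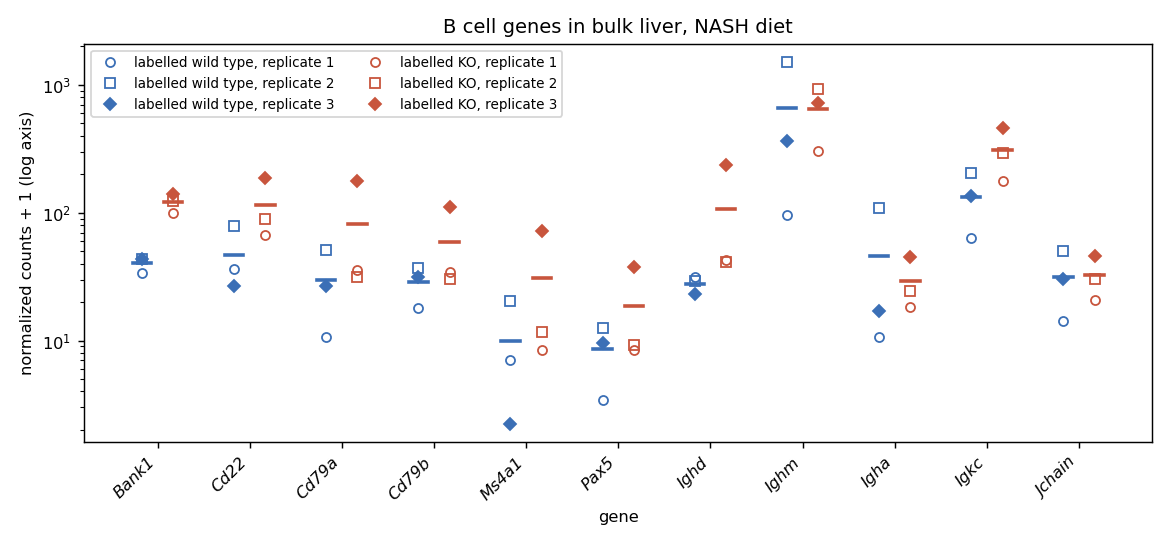
Normalized counts plus 1 (log axis) of 11 B cell and immunoglobulin genes in the 6 bulk libraries labelled as NASH diet. Groups are by label, with a mark for each replicate and a line at the mean of each group. Bank1 and Ighd separate the groups, and the filled diamond of KO replicate 3 is the highest of 6 for Cd79a, Cd79b, Ms4a1 and Pax5.

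In the libraries labelled as livers of mice on chow, 33 of the 55 genes were in the table and 23 passed the filter. Ly6d was at 4324, 4507 and 5252 normalized counts in the libraries labelled PBS and 1166, 1478 and 2628 in those labelled LD (log2 fold change -1.50, SE 0.25, limma adjusted p = 0.0143). Ralgps2 was at 1116, 1174 and 1138 against 747, 741 and 889 (log2 fold change -0.53, SE 0.10, adjusted p = 0.0233). In both genes the groups do not overlap. These were the 2 of 23 called lower, against 2.21% of all 14900 genes, and 0 were called higher, against 1.95% (4.16% in either direction), with 4 of the 23 at an unadjusted p under 0.05. The call of Ly6d was lost without PBS replicate 2, PBS replicate 3 or LD replicate 2 (limma adjusted p = 0.0713, 0.0631 and 0.0522). That of Ralgps2 was lost without any one library other than LD replicate 3. Cd79a was at 106, 72.1 and 91.1 under the PBS label, far below Ly6d. In group 9 Cd79a (4.64 and 5.74 scaled UMIs) was above Ly6d (1.63 and 1.99). The nuclei log2 ratio of Ly6d was 0.28 in group 9 and ran from -2.08 to -0.49 elsewhere. Which cells the bulk Ly6d came from was not tested.

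Calls in the B cell lists there, whose genes are likewise not confined to group 9, were all of lower levels in the libraries labelled LD. Of 16 surface genes 1 was called, Cd24a, lower, of 20 signalling genes 1, Ralgps2, and of 18 transcription factor genes 0. Of 16 plasma cell genes tested 1 was called: Prdm1, named after its values were seen, was at 34.1, 57.7 and 52.8 under the PBS label and 10.496, 13.02 and 16.6 under the LD label (limma adjusted p = 0.0285). That call was lost without PBS replicate 2 or 3 or LD replicate 1 or 2 (adjusted p from 0.0798 to 0.140). Of 12 cell cycle genes 4 were called (Mki67, Cenpf, Ccnb1 and Birc5), of 9 germinal centre and activation genes 2 (Mybl1 and Egr1), of 11 marginal zone and B1 genes 1 (Cd9) and of 11 survival genes 1 (Relb), against 2.21% of all genes called lower, and these are named after their values were seen. Each of these 8 calls was lost without PBS replicate 2 (adjusted p from 0.0613 to 0.136) and without PBS replicate 3 (0.0641 to 0.137). The median log2 fold change over the 23 leading genes tested was -0.33, against 0.003 over all genes. Ebf1 was at 25.1, 24.3 and 20.04 against 6.30, 11.9 and 16.6 (log2 fold change -1.02, SE 0.44, adjusted p = 0.243), groups that do not overlap, against 25.4% of all genes. Bank1 was at 77.2, 84.7 and 75.6 against 89.2, 74.9 and 82.8. By limma 0 of the 4 given markers tested were called, with 1 at an unadjusted p under 0.05. Ms4a7 was at 62.2, 84.7 and 163 against 10.496, 7.595 and 9.32 (adjusted p = 0.0043). Immunoglobulin constant genes were not analysed here in these livers.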

How the data were processed

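RNA was measured in bulk liver and in sorted liver nuclei. The submitters' processing notes list mm10 as genome build and FastQC, STAR, DESeq2, Cell Ranger and Seurat 4.0.1 as tools. The counter and strand setting are not given in the sources used here. The bulk signal values are deposited counts over a size factor per library, as the values show: 100% were whole multiples of 1 step within 0.01, so whole reads could be recovered. The deposited nuclei signal values are the authors' mean scaled UMIs per group and genotype. How doublets were treated is not given in the sources used here. The 4 table entries with a repeated name were left out. Deposited log2 fold changes, p-values and q-values of the authors were not used.

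Bulk values were tested with limma 3.58.1 (trend, 2-sided) in R 4.3.3 on log2(value + 1), Benjamini-Hochberg adjusted at 0.05. The test was checked on simulated data: 58% of 2-fold and 99% of 4-fold changes were recovered for the labelled KO comparison, and 71% and 100% for labelled LD. The simulation gave every gene the same dispersion and changed only genes above a minimum mean. Some B cell genes spread far more, such as Cd79a with a mean of 80.1 and an SD of 82.3 under the KO label. These recovery shares therefore do not carry over to such genes or to genes of low counts. Alternatives included edgeR 4.0.16 and DESeq2 1.42.0 on the recovered counts. Nuclei ratios had 0.023 added to both levels (the 5th percentile of non-zero values). Genes were named as the given markers, the 25 leading genes with the largest ratios and the 12 largest KO to wild type ratios per direction, both within the top 2000 genes by level, every immunoglobulin constant gene, up to 6 highest members of each of 27 lists, members past 2-fold, and leading genes called in bulk. Results of some genes that this rule names are not reported here. The genes, lists and rules were chosen with earlier results of these data known. Labels put wild type and KO values in a table that the submitters named for lipid droplets, and PBS and LD values in one named for Ms4a7.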

Additional observations from a re-analysis of the deposited data

Results flagged for a closer look

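Immunoglobulin and plasma cell genes were also found in KO columns outside group 9. The rule, a KO level above the group 9 filter and at least 10 times the wild type level of the same group, looked in that direction alone and was set after the values were seen. In KO group 7, cholangiocyte-like, Ighg2c was at 2.35 scaled UMIs (0 in wild type), Igkc at 3.76 (0.120) and Jchain at 0.749 (0.041). In KO group 5, neutrophil-like, Xbp1 was at 0.886, Creld2 at 1.30, Eaf2 at 0.276 and Fkbp11 at 0.871, all at 0 in wild type. In KO group 11 Eaf2 was at 0.520 (0 in wild type). Groups 5 and 11 have fewer genes above the filter (4661 and 6344) than group 9 (7207).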

How the results depend on the processing

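The number of leading genes was 104 with 2-fold in place of 4-fold, 36 with 8-fold, and 34 within the top 2000 genes. Genes at least 2-fold higher in KO numbered 42 within the top 2000 and 2287 with no level filter, and genes lower numbered 24 and 2094. Other pseudocounts, centring and rescaling, and the leading genes without group 8, which was added after seeing the data (56 genes), stayed within 1.5 times. In bulk labelled KO, 3 leading genes were called by DESeq2 (Bank1, Ighd and Igkc). Leaving out 1 library gave 0 to 1 calls there and 0 to 2 in bulk labelled LD. Over all genes DESeq2 called 1241 and 1221 genes in place of 589 and 620, and leaving out 1 library gave 124 to 530 and 134 to 1226. With the replicate block 2 leading genes (Bank1 and Igkc) were called in labelled KO and 2 in labelled LD. Deviations of same-numbered libraries correlated weakly (from -0.030 to 0.119 and from -0.043 to 0.132). Wild type replicate 1 and PBS replicate 3 correlated best with their own number, and the other wild type and PBS replicates did not. Such deviations from means of 3 libraries cannot exclude pairing. Of 46 bulk fold changes (the called genes of the lists and some other named genes) under these settings, 487 values kept their direction and side of the threshold, 134 lost a call and 4 gained one (in labelled KO Ighd by DESeq2 and Igkc by DESeq2 and with the replicate block, and in labelled LD Cxcl13 by DESeq2). No called gene reversed, while Igha, which was not called, turned from 0.01 to below 0 in 7 values (down to -0.66). None of 27 nuclei ratios (150 values) reversed or crossed 2-fold. The nuclei have unknown depth and 1 library per genotype, which limits every nuclei difference. Causes were not tested.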
